A study of Mus musculus with 6 samples.

Results

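The genes described here are 33 members of the glycolytic pathway and of the transcriptional response to low oxygen, chosen by symbol as the hexokinase-to-pyruvate-kinase enzymes with their regulator *Pfkfb3*, transporters of glucose and lactate, enzymes that decide the fate of pyruvate, subunits of the hypoxia-inducible factors (HIF) with 2 of their prolyl hydroxylases, and well-known HIF target genes. All 33 were listed among the 24972 gene symbols of the RNA-Seq table, and all 33 passed the filter on low values that left 14456 genes for testing. Isolated lung endothelial cells (iLECs) had been collected at postnatal day 7 (P7) from 2 genotypes, control and *Atp6ap2* iECKO, with 3 libraries of each. Control samples carried the floxed *Atp6ap2* allele with no Cre (labelled fl/Y), and *Atp6ap2* iECKO samples carried fl/Y together with *Cdh5-CreERT2*, a Cre recombinase that tamoxifen activates and that is expressed from the *Cdh5* promoter, that of VE-cadherin, in endothelium. All pups received 100 µg tamoxifen on P1, P2 and P3, so the controls carried the floxed allele and the drug but no Cre. The strain is labelled C57BL/6, whereas the study's methods describe a mixed CD1 and C57BL/6 background. iLECs are the CD31-positive cells that magnetic beads retained from digested lung, and whether a library held cells of 1 or of several pups is not given in the sources used here.

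Glycolysis splits glucose into pyruvate. In its preparatory phase hexokinase and phosphofructokinase spend ATP and aldolase splits the product into triose phosphates, and in its payoff phase the enzymes from glyceraldehyde-3-phosphate dehydrogenase to pyruvate kinase recover ATP. Endothelial cells are known for a high glycolytic rate, with PFKFB3 as an activator of phosphofructokinase during vessel sprouting. When oxygen falls, prolyl hydroxylases no longer mark HIF-α subunits for degradation, and HIF-α pairs with ARNT to activate genes whose regulatory DNA holds the core ACGTG or GCGTG. Most glycolytic enzymes are textbook HIF targets, and EPAS1 (HIF-2α) is the α subunit long associated with endothelium. HIF-α activity is set mainly at the protein level, which RNA-Seq does not measure. ATP6AP2, the (pro)renin receptor, is an accessory protein of the vacuolar proton pump.

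The promoters of the 4 members that passed the test are shown because the data bear on them together, as the 250 bases upstream of the RefSeq start on build GRCm38.p6, the patch release of mm10, 5′ to 3′ on the strand of the gene. Capitals mark each hypoxia response core, ACGTG or GCGTG, or the same core on the opposite strand, CACGT or CACGC. The windows lie at chrX:106186850-106187099 (+) for *Pgk1*, chr19:41911621-41911870 (+) for *Pgam1*, chr13:6648772-6649021 (-) for *Pfkp* and chr7:110627407-110627656 (+) for *Adm*.
Pgk1: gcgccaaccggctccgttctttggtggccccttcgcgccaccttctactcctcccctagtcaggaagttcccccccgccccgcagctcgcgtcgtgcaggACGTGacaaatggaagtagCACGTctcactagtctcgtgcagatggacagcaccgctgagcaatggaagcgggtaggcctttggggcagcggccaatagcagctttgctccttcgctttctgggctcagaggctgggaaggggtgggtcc
Pgam1: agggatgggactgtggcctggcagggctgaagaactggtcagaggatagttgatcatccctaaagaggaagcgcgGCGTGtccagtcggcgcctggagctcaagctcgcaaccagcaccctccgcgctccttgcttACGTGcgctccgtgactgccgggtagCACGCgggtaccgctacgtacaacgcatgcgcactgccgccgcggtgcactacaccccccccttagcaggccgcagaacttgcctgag
Pfkp: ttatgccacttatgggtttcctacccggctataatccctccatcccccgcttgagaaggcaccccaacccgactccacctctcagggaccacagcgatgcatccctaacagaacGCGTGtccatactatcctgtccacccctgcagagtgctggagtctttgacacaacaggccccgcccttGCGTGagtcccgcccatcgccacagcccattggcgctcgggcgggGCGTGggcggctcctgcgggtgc
Adm: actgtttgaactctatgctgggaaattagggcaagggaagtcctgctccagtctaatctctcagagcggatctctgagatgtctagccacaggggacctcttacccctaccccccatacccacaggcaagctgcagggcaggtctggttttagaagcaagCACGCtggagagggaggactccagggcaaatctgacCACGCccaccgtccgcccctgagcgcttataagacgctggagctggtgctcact

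The *Pgk1* window held 2 ACGTG cores, the *Pgam1* window 1 ACGTG and 2 GCGTG cores, the *Pfkp* window 3 GCGTG cores and the *Adm* window 2 GCGTG cores. RefSeq promoters were matched for 31 of the 33 members, without *Epas1* and *Ndrg1*. Counting every annotated promoter of a gene, and counting the palindrome CACGTG on both strands, 29 of the 31 members (93.5%) held at least 1 core of either kind. Among the 11263 tested genes with a promoter the share was 59.3%. An ACGTG core was found for 18 of 31 members (58.1%) and for 24.1% of the tested genes. Member promoters were somewhat richer in G and C, with a median of 61.8% against 59.6%. The members were chosen in part as known HIF targets, a choice that itself favours such cores. They also had more promoters per gene, 44 for 31 members against 14269 for 11263 tested genes. The cores were present in the promoters of members that rose and of the member that fell. A match of 5 letters is a description of the sequence and not of binding.

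*Atp6ap2* itself (chrX:12587801-12617049) had normalized counts of 7490.2, 5814.7 and 5680.8 in the control libraries and 4219.8, 2336.2 and 1982.3 in the *Atp6ap2* iECKO libraries, a log2 fold change of -1.22 (SE 0.26, limma adjusted *P* = 0.0306). The table as deposited holds estimated counts already scaled between libraries by the authors, here called normalized counts. Library totals were between 26243900 and 28725800, and relative depth, read from the most common low value, was 1.00 to 1.04 in control and 1.25 to 1.56 in *Atp6ap2* iECKO libraries. *Xist*, the RNA of the inactive X chromosome, was at 37703.6, 44402.1 and 31.7 in the control and 39441.8, 19.3 and 47486.7 in the *Atp6ap2* iECKO libraries, so 4 of 6 libraries went against the label fl/Y. Defining endothelial markers such as *Pecam1* and *Cdh5* were high in both genotypes, with summed levels of 20 markers of 499232 to 654293 in control and 504160 to 590820 in *Atp6ap2* iECKO libraries. Of these 20, 1 was called, the angiopoietin receptor *Tek* at a log2 fold change of -0.53 (limma adjusted *P* = 0.0292). Markers of other cells were also present. Summed fibroblast markers ranged from 84649 to 129301 in control and from 30392 to 43255 in *Atp6ap2* iECKO libraries (10 of 14 tested called lower), and mural and smooth muscle markers from 14456 to 21798 and from 5928 to 7580 (9 of 14 lower). Epithelial markers spanned 28253 to 76477 and 34964 to 42162 (1 of 15 higher), leukocyte markers 6559 to 11992 and 5493 to 15822 (0 of 14 called by limma, 0 at an unadjusted *P* below 0.05), and erythroid markers 11314 to 47971 and 10664 to 22310 (0 of 7, 0 unadjusted, with *Hbb-bs* listed at 0). Immediate early and heat shock genes, which respond to cell isolation, summed to 221803 to 276027 and 166440 to 204386 (1 of 15 called lower, 9 lower at an unadjusted *P* value below 0.05). Over all 14456 genes tested, limma called 3.28% higher and 4.97% lower, and 23.9% had an unadjusted *P* value below 0.05 in either direction. In such bulk samples, fewer cells of a type and less RNA per cell cannot be told apart.

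In *Atp6ap2* iECKO iLECs the transcripts of 3 glycolytic enzymes were higher than in control iLECs, *Pgk1* by 37.3%, *Pfkp* by 25.2% and *Pgam1* by 21.6%, while *Adm*, which encodes the vasodilator peptide adrenomedullin, fell by 52.4%. The remaining 29 members did not pass the test. Called means an adjusted *P* value below 0.05 in limma over all 14456 genes tested. By that measure 4 of 33 members (12.1%) were called against 1193 of all genes (8.25%), with 3 members higher against a background of 3.28% and 1 lower against 4.97%. At an unadjusted *P* value below 0.05 the counts were 9 of 33 members and 23.9% of all genes. The values of the 2 genotypes did not overlap for 13 of 33 members, 6 higher and 7 lower, against 29.8% of all genes. The median log2 fold change of the members was -0.07 and that of all genes 0.00. Of the 15 enzymes from *Hk1* to *Pkm* with *Pfkfb3*, 3 were called (20%, against 8.25% of all genes). The genotypes did not overlap for 10 of these 15, 6 higher and 4 lower, against 29.8% of all genes.

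**Figure D1:**
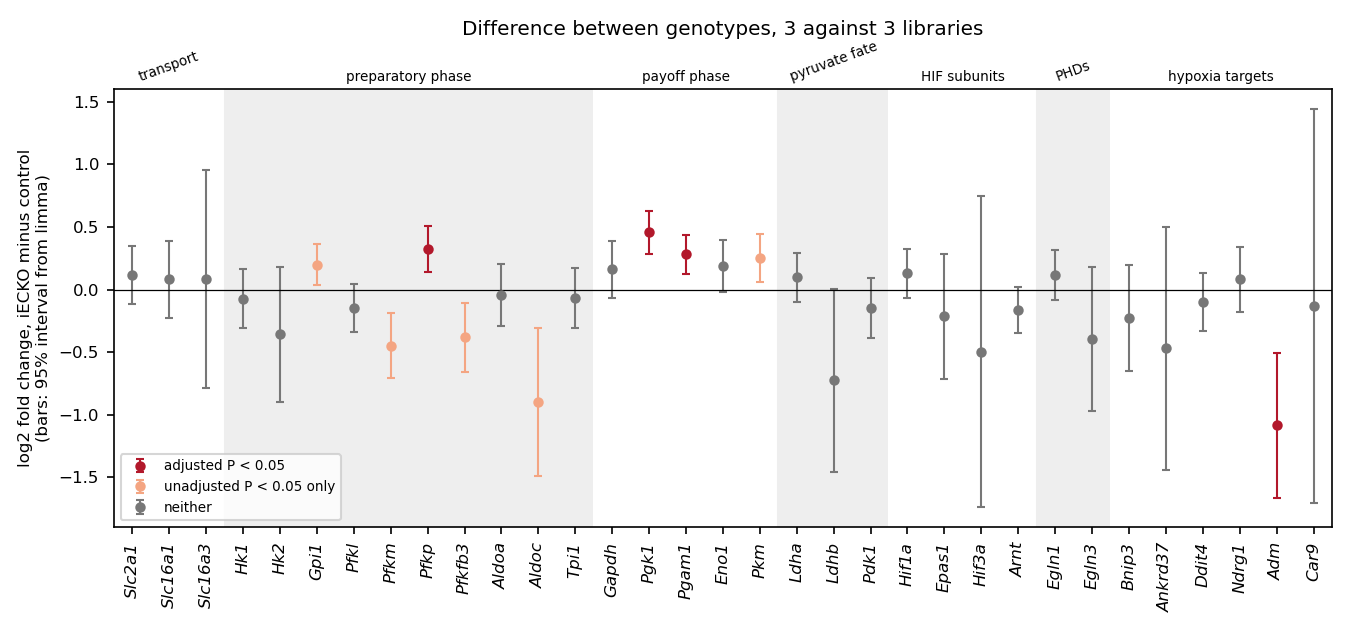
Log2 fold change (vertical axis, *Atp6ap2* iECKO minus control) of each of the 33 members, ordered by role, with 95% confidence intervals from limma as bars. Dark red marks the 4 members with an adjusted *P* value below 0.05, orange those with only an unadjusted one, grey the rest. All 5 payoff-phase enzymes sit above zero, 8 of 10 preparatory-phase members sit below it, and *Adm* is the lowest of all at -1.08.

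All 5 members of the payoff phase had positive log2 fold changes, with a median of 0.25, and 2 of the 5 were called higher. Of all 14456 genes tested, 7323 were positive and 3.28% were called higher. *Pgk1* (chrX:106187100-106203699), phosphoglycerate kinase 1, the first ATP-forming enzyme of the pathway, had normalized counts of 2711.1, 2853.6 and 2650.4 in control and 3920.2, 3659.6 and 3695.8 in *Atp6ap2* iECKO libraries. Every *Atp6ap2* iECKO library was above every control library, and the lowest of them exceeded the highest control by several times the spread within a genotype. The means were 2738 ± 104 and 3759 ± 141 (SD, n = 3 each), a log2 fold change of 0.46 (SE 0.07, 95% CI 0.29 to 0.63, limma adjusted *P* = 0.0141). *Pgk1* lies on the X chromosome, and with *Xist* presence as a covariate its adjusted *P* value was 0.0278. In the 4 libraries with *Xist* alone the log2 fold change was 0.45 (adjusted *P* = 0.163), a fit in which 0 of 14094 genes were called and 2196 had an unadjusted *P* value below 0.05. Leaving out 1 library at a time kept the log2 fold change between 0.43 and 0.49, and the call was lost without control 3 (adjusted *P* = 0.0520), without *Atp6ap2* iECKO 2 (0.0573) and without *Atp6ap2* iECKO 3 (0.0601).

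*Pgam1* (chr19:41911923-41918660), phosphoglycerate mutase 1, which acts right after the kinase, had the tightest replicates of the called members. Its normalized counts were 2593.8, 2590.1 and 2537.6 in control and 3106.7, 3090.9 and 3190.6 in *Atp6ap2* iECKO libraries. The gap between genotypes was several times wider than the range within either. Means were 2574 ± 31.4 and 3129 ± 53.6 (SD, n = 3 each), with a log2 fold change of 0.28 (SE 0.07, 95% CI 0.12 to 0.44, limma adjusted *P* = 0.0446). The call stood close to the threshold, as each of the 6 fits without 1 library gave an adjusted *P* value between 0.0645 and 0.170, with log2 fold changes of 0.27 to 0.29. With *Xist* presence as a covariate it was 0.0900, and in the 4 libraries with *Xist* 0.287.

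The other 3 payoff enzymes were not called. *Pkm*, pyruvate kinase, the last ATP-forming step, was at 10125.1, 10515 and 9512.2 in control and 12550.4, 12066.6 and 11299.7 in *Atp6ap2* iECKO libraries, with no overlap (log2 fold change 0.25, 95% CI 0.06 to 0.45, limma adjusted *P* = 0.113). Equalizing library totals brought *Pkm* past the threshold (adjusted *P* = 0.0397). *Gapdh*, glyceraldehyde-3-phosphate dehydrogenase, often used as a reference gene, was at 6144.6, 6902.8 and 7288 against 7916, 6863.1 and 7998.4. Its genotypes overlapped, and the interval of its log2 fold change reached from -0.06 to 0.39. *Eno1*, enolase 1, did not overlap between genotypes at a log2 fold change of 0.19 (95% CI -0.01 to 0.40, limma adjusted *P* = 0.241). Reads of *Eno1* can be shared with its near copy *Eno1b*, whose log2 fold change was 0.03.

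**Figure D2:**
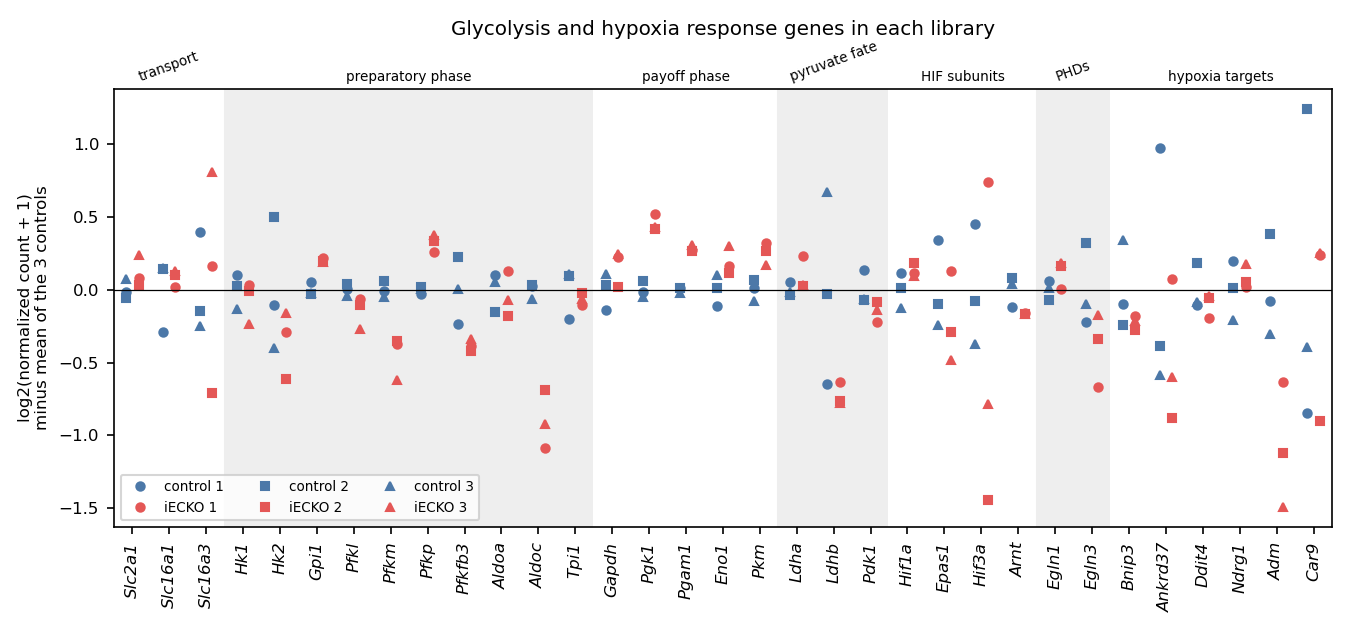
Log2(normalized count + 1) of each member in each of the 6 libraries minus the mean of the 3 control libraries (vertical axis), with control in blue, *Atp6ap2* iECKO in red and the replicate number given by the symbol. *Pgk1*, *Pgam1* and *Pfkp* show 2 separate groups of points, *Adm* a lower and wider *Atp6ap2* iECKO group, and *Hif3a*, *Ankrd37* and *Car9* a spread within genotypes that covers the difference between them.

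In the preparatory phase 1 of 10 members was called higher and 8 of 10 had negative log2 fold changes. Among all 14456 genes tested, 3.28% were called higher and 7133 were negative. *Pfkp* (chr13:6579768-6648777), the platelet-type phosphofructokinase isoenzyme, had normalized counts of 1081.2, 1115.4 and 1107.9 in control and 1316.7, 1387.3 and 1432.4 in *Atp6ap2* iECKO libraries. The control values lay within a few percent of each other and below all *Atp6ap2* iECKO values. Its log2 fold change was 0.32 (SE 0.08, 95% CI 0.14 to 0.51, limma adjusted *P* = 0.0479). This call was also close to the threshold: without any 1 library the adjusted *P* value was between 0.0662 and 0.186, with the *Xist* covariate 0.0914, and in the 4 libraries with *Xist* 0.295. *Pfkp* shares 748 exon bases with *Pitrm1* on the opposite strand, and the library kit does not mark strand, so reads there cannot be told apart. *Pitrm1* had a log2 fold change of 0.44 (limma adjusted *P* = 0.114). The same limit holds for *Gpi1*, which shares 741 exon bases with *Gm26762* on the opposite strand. *Pkm* shares 767 exon bases with *Gm49759* on the same strand.

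*Pfkm*, the muscle-type isoenzyme of the same step, was at 718.4, 752.4 and 695.8 in control and 557.9, 566.2 and 469.9 in *Atp6ap2* iECKO libraries. All 3 *Atp6ap2* iECKO values lay below the lowest control, with a log2 fold change of -0.45 (95% CI -0.71 to -0.19), just outside the threshold at a limma adjusted *P* of 0.0510. *Pfkl*, the liver-type isoenzyme, did not overlap between genotypes either, at -0.15 (95% CI -0.34 to 0.05, adjusted *P* = 0.343). The makeup of this step separated the libraries by genotype. Per base of transcript, *Pfkp* made up 24.7%, 24.7% and 25.8% of the 3 phosphofructokinase transcripts in control and 30.8%, 32.3% and 36% in *Atp6ap2* iECKO libraries. *Pfkm* made up 23.7%, 24% and 23.3% against 18.8%, 19% and 17%, and *Pfkl* 51.6%, 51.2% and 50.9% against 50.3%, 48.7% and 47%. *Pfkl* was the largest share in all 6 libraries, whereas *Pfkp* and *Pfkm* were near parity in control libraries and apart in *Atp6ap2* iECKO libraries. The summed level of the step was 1060 ± 25.6 normalized counts per kilobase in control and 1009 ± 42.3 in *Atp6ap2* iECKO libraries (SD, n = 3 each).

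**Figure D3:**
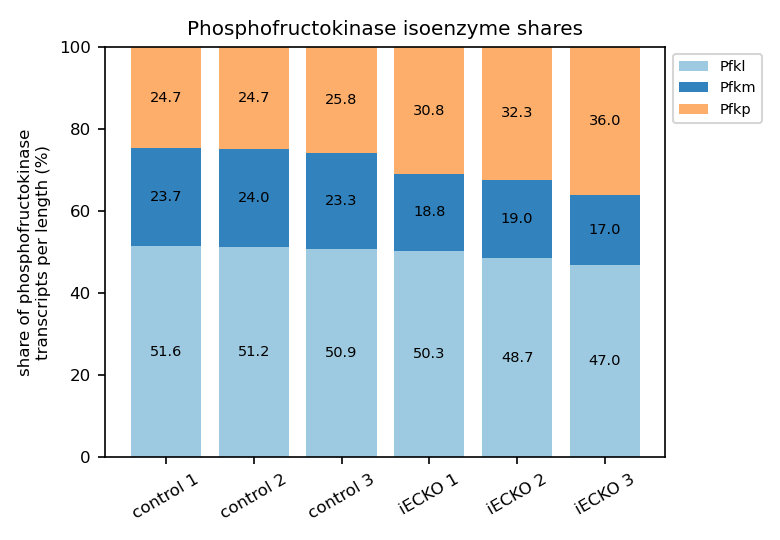
Stacked bars of the shares of *Pfkl*, *Pfkm* and *Pfkp* in the summed phosphofructokinase transcripts of each library (horizontal axis), in percent of normalized counts per kilobase of transcript. *Pfkp* takes 24.7% to 25.8% in control and 30.8% to 36% in *Atp6ap2* iECKO libraries, and *Pfkm* 23.3% to 24% and 17% to 19%.

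Ratios between isoenzymes within a library do not depend on how libraries were scaled, and 8 such log2 ratios were compared with a two-sided exact permutation test, whose smallest possible *P* value with 3 against 3 libraries is 0.1. The design therefore cannot pass 0.05. The *Pfkp* to *Pfkl* log2 ratio was -0.91, -0.90 and -0.83 in control and -0.55, -0.44 and -0.23 in *Atp6ap2* iECKO libraries, a difference of 0.47 (exact permutation *P* = 0.1, 0.16 adjusted over the 8 ratios). The *Pfkm* to *Pfkl* ratio differed by -0.30, *Aldoc* to *Aldoa* by -0.86, *Ldhb* to *Ldha* by -0.82 and *Egln3* to *Egln1* by -0.51. These 4 ratios also had no overlap between genotypes, each with the same smallest exact permutation *P* value of 0.1. The ratios of *Hk2* to *Hk1* (-0.28, exact permutation *P* = 0.4), of *Epas1* to *Hif1a* (-0.34, 0.3) and of *Slc16a3* to *Slc16a1* (0.00, 1) overlapped. Where the ratios separated, the less abundant isoenzyme had the lower share in *Atp6ap2* iECKO libraries in every case but *Pfkp*. A ratio removes library scaling but not differences in cell makeup. Summed fibroblast and mural markers were lower in all *Atp6ap2* iECKO libraries, and their part in these ratios was not tested.

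The other members of the preparatory phase were not called. *Gpi1*, glucose-6-phosphate isomerase, was at 5902.6, 5586.7 and 5600.1 in control and 6613.3, 6527.6 and 6492.2 in *Atp6ap2* iECKO libraries, without overlap (log2 fold change 0.20, 95% CI 0.04 to 0.36, limma adjusted *P* = 0.128). *Pfkfb3* went the other way, at 1600.2, 2206.2 and 1893.3 against 1441.2, 1407.8 and 1489.5 (log2 fold change -0.38, 95% CI -0.66 to -0.11, limma adjusted *P* = 0.0965). Its control values were widely spread and its *Atp6ap2* iECKO values close together. Without control 1 *Pfkfb3* passed the threshold (adjusted *P* = 0.0327). *Aldoc*, the brain-type aldolase, was low throughout, at 69.7, 70 and 65.3 against 31.6, 42.1 and 35.5 (log2 fold change -0.90, 95% CI -1.49 to -0.30, limma adjusted *P* = 0.0741). *Aldoc* became the only called member when the variance was fitted without a mean trend, a model that called 304 genes in all. The main aldolase *Aldoa* had a log2 fold change of -0.04 (95% CI -0.29 to 0.21) and *Tpi1*, triosephosphate isomerase, of -0.06 (95% CI -0.30 to 0.18). For the hexokinases, which trap glucose in the cell, the values were -0.07 for *Hk1* (95% CI -0.30 to 0.16) and -0.35 for *Hk2* (95% CI -0.89 to 0.18).

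Transcript levels of the members, without other isoenzymes, were also added up per step and per kilobase of transcript. From the control to the *Atp6ap2* iECKO mean, the summed level changed by -6.47% for hexokinase, -4.80% for phosphofructokinase, -3.24% for aldolase and -4.77% for triosephosphate isomerase, and that of glucose-6-phosphate isomerase was 14.9% higher. In the payoff phase the means were higher by 12.0% for glyceraldehyde-3-phosphate dehydrogenase, 37.3% for phosphoglycerate kinase, 21.6% for phosphoglycerate mutase, 14.3% for enolase and 19.1% for pyruvate kinase. Lactate dehydrogenase was 5.00% higher. Enolase was *Eno1* alone. Its near copy *Eno1b*, with means of 489 in control and 499 in *Atp6ap2* iECKO libraries (normalized counts per kilobase), was left out. These sums were formed after single values had been seen and were not tested. They describe mRNA, not enzyme activity or flux.

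Transport and pyruvate use gave no calls. *Slc2a1*, the glucose transporter GLUT1, had a log2 fold change of 0.12 (95% CI -0.12 to 0.35). The lactate transporters *Slc16a1* (MCT1) and *Slc16a3* (MCT4) both stood at 0.08, the latter with an interval from -0.79 to 0.96. *Ldha*, the main lactate dehydrogenase subunit, was at 6411.8, 6028.1 and 6134 in control and 7262.4, 6301 and 6346 in *Atp6ap2* iECKO libraries. The genotypes overlapped, and a single *Atp6ap2* iECKO library stood above the rest (log2 fold change 0.10, 95% CI -0.10 to 0.29, limma adjusted *P* = 0.539). *Ldhb*, the subunit that favours pyruvate formation, was at 122.4, 188.7 and 306.7 against 123.4, 112.6 and 111.9. Its control values spread more than 2-fold, and its log2 fold change of -0.72 did not pass (95% CI -1.45 to 0.00, limma adjusted *P* = 0.211). *Pdk1*, the kinase that keeps pyruvate out of mitochondria by inhibiting pyruvate dehydrogenase, was at -0.15 (95% CI -0.39 to 0.09) without overlap between genotypes.

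No HIF subunit and neither hydroxylase was called. *Epas1*, whose product is HIF-2α, was the most abundant member by far, with 131244, 97095.1 and 87609.8 normalized counts in control and 113526, 85005.9 and 74191.2 in *Atp6ap2* iECKO libraries. The genotypes overlapped (log2 fold change -0.21, 95% CI -0.71 to 0.28, limma adjusted *P* = 0.605). With replicate number as a covariate the SE fell from 0.22 to 0.10, and *Epas1* was still not called (limma adjusted *P* = 0.216). *Hif1a*, the ubiquitous α subunit, was at 5091.9, 4731.9 and 4315.9 against 5086, 5338.4 and 5021.6, again with overlap (0.13, 95% CI -0.07 to 0.33). Per kilobase of transcript *Epas1* stood at 19093 ± 4161 and *Hif1a* at 998 ± 82.2 in control libraries (SD, n = 3 each). *Epas1* thus made up 92.7% to 95.7% of the summed per-length level of these 2 subunits in every library. *Hif3a*, a subunit with inhibitory splice forms, was low and scattered at 97.4, 67.3 and 54.7 against 119.5, 25.5 and 40.9. *Arnt*, the shared partner subunit, was at 2168.9, 2488.7 and 2424.7 in control and within a narrow 2114.7, 2101.7 and 2101.2 in *Atp6ap2* iECKO libraries. That set did not overlap, but the log2 fold change of -0.16 did not pass (95% CI -0.35 to 0.02, limma adjusted *P* = 0.271).

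Of the prolyl hydroxylases, *Egln1* (PHD2), the principal oxygen sensor, was at 1467.1, 1339.6 and 1418.7 in control and 1411.8, 1573.8 and 1599.1 in *Atp6ap2* iECKO libraries (log2 fold change 0.12, 95% CI -0.08 to 0.32). *Egln3* (PHD3), itself a HIF target, was at 89.8, 131.1 and 97.7 against 65.6, 82.7 and 92.7 (-0.39, 95% CI -0.97 to 0.18). Both pairs of groups overlapped. In control libraries *Egln1* stood at 392 ± 17.9 and *Egln3* at 39.9 ± 8.24 normalized counts per kilobase (SD, n = 3 each).

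**Figure D4:**
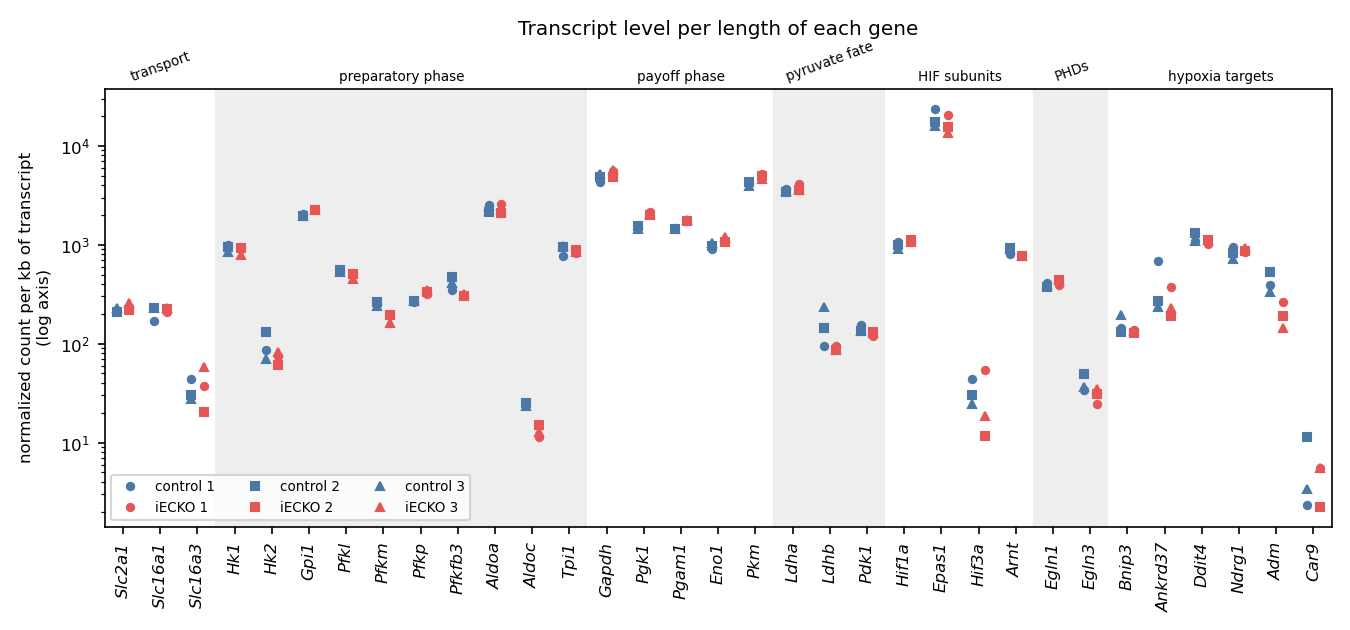
Level of each member in normalized counts per kilobase of its longest principal transcript, on a logarithmic axis, for every library (control in blue, *Atp6ap2* iECKO in red), ordered by role. *Epas1* is the highest, *Gapdh*, *Pkm* and *Ldha* come next, and *Car9* is the lowest with means of 5.73 in control and 4.42 in *Atp6ap2* iECKO libraries.

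In order of per-length level in control libraries, *Epas1* was followed by *Gapdh* (4774 ± 410 normalized counts per kilobase), *Pkm* (4133 ± 208), *Ldha* (3506 ± 112), *Aldoa* (2375 ± 220), *Gpi1* (1975 ± 62.0), *Pgk1* (1500 ± 57.1) and *Pgam1* (1450 ± 17.7, all SD, n = 3). The control libraries of *Gapdh* and *Pkm* nearly met (lowest 4327, highest 4324), and those of *Pgk1* and *Pgam1* overlapped, whereas *Epas1* stood clear of all others. In *Atp6ap2* iECKO libraries *Pgk1* reached 2059 ± 77.4, close to *Gpi1* at 2269 ± 21.6 and *Aldoa* at 2308 ± 251.

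Among the HIF target members outside glycolysis, *Adm* (chr7:110627661-110629820) was the only one called. Its normalized counts were 540.5, 742.5 and 462.7 in control and 366.7, 262.3 and 202.1 in *Atp6ap2* iECKO libraries. Both groups were spread widely, but the highest *Atp6ap2* iECKO value stayed below the lowest control. The means were 581.9 ± 144 and 277 ± 83.3 (SD, n = 3 each), a log2 fold change of -1.08 (SE 0.25, 95% CI -1.66 to -0.50, limma adjusted *P* = 0.0396). Without 1 library the log2 fold change lay between -1.31 and -0.88, and the call held only without *Atp6ap2* iECKO 1 (adjusted *P* = 0.0245), while the other 5 fits gave 0.0746 to 0.123. With the *Xist* covariate the adjusted *P* value was 0.0517, and in the 4 libraries with *Xist* 0.192. Summed fibroblast and mural markers were also lower in all *Atp6ap2* iECKO libraries (30392 to 43255 against 84649 to 129301, and 5928 to 7580 against 14456 to 21798), and their part in the difference of *Adm*, *Pfkm* and *Aldoc* was not tested. The sums of immediate early and heat shock genes were lower as well, and their part was not tested either.

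The other 5 HIF targets of this kind did not pass. *Ankrd37*, an ankyrin repeat protein gene, was at 638.7, 248.9 and 216.4 in control and 343.1, 176 and 214.2 in *Atp6ap2* iECKO libraries, with 1 control library far above the rest (log2 fold change -0.47, 95% CI -1.44 to 0.50). *Bnip3*, a mitophagy receptor gene, stood at -0.22 (95% CI -0.65 to 0.20). *Ddit4*, an inhibitor of mTORC1, stood at -0.10 (95% CI -0.33 to 0.13) and *Ndrg1*, a stress-responsive gene, at 0.08 (95% CI -0.18 to 0.34). *Car9*, carbonic anhydrase 9, a classic reporter of HIF-1 activity, was near the floor of the table at 4.7, 23.3 and 6.8 against 11.1, 4.5 and 11.2, so no difference was detectable at this depth.

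The rest of the pathway was followed in lists of genes that are not members. Over all genes tested, limma called 8.25%, 3.28% higher and 4.97% lower, and 23.9% had an unadjusted *P* value below 0.05. Of 28 other glycolytic enzymes and glucose transporters 21 were tested, and limma called 0 while 3 had an unadjusted *P* value below 0.05. Of 13 genes for pyruvate entry into mitochondria 0 were called and 2 passed unadjusted. In the tricarboxylic acid cycle 1 of 17 was called, *Mdh2*, mitochondrial malate dehydrogenase, at 2398.5, 2418.7 and 2385.4 in control and 3019.1, 2830 and 2925 in *Atp6ap2* iECKO libraries (log2 fold change 0.28, limma adjusted *P* = 0.0471). Without 1 library this list had a call only when control 2 was the one left out. In that cycle 15 of 17 genes had positive log2 fold changes, with a median of 0.09. Of all 14456 genes tested 7323 were positive, with a median of 0.00. In the pentose phosphate pathway 1 of 8 was called. It was *H6pd*, the hexose-6-phosphate dehydrogenase of the endoplasmic reticulum, at 1803.1, 2894.6 and 2584.9 in control and 1018.9, 968.3 and 942.7 in *Atp6ap2* iECKO libraries. All *Atp6ap2* iECKO values of *H6pd* lay far below the lowest control, with a log2 fold change of -1.29 (SE 0.16, limma adjusted *P* = 0.00916), larger in size than that of any member.

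Among 18 genes of oxygen sensing and HIF regulation 2 were called lower, where 4.97% of all genes tested were. This count was 2 without control 1, 1 without *Atp6ap2* iECKO 1 and 0 without any other single library. *Arnt2*, a relative of *Arnt*, had a log2 fold change of -1.42 (limma adjusted *P* = 0.0260) and *Cited2*, which competes with HIF-α for its coactivators, of -0.62 (limma adjusted *P* = 0.0385). Among 43 tested HIF targets that are not members 9 were called (20.9%), 2 higher and 7 lower, where all genes gave 8.25% called, 3.28% higher and 4.97% lower. That count was 6 without control 1 or *Atp6ap2* iECKO 1, 2 without control 2, 0 without control 3, *Atp6ap2* iECKO 2 or *Atp6ap2* iECKO 3, and 1 when the variance had no mean trend. *Apln*, the tip cell peptide apelin, was at 5809.6, 5364.9 and 5014.8 in control and 7238.6, 10817.9 and 12140.1 in *Atp6ap2* iECKO libraries (log2 fold change 0.87, limma adjusted *P* = 0.0284). *P4ha2*, a collagen prolyl hydroxylase subunit, stood at 0.70 (limma adjusted *P* = 0.0215). The genes called lower were *Ppp1r3c* at -1.22, a regulator of glycogen, *Angptl4* at -1.10, an inhibitor of lipoprotein lipase, and the collagen-modifying *Plod2* at -0.57 and *Lox* at -0.48, together with *Bnip3l*, *Vldlr* and *Narf*, named after their values were seen. *Lox* is also on the fibroblast marker list. *Vegfa*, the best-known angiogenic HIF target, also named after its values were seen, was not called (-0.36, limma adjusted *P* = 0.184), although its genotypes did not overlap. Calls were thus made in both directions. Of the 43, 28 had negative log2 fold changes, with a median of -0.18, against 7133 of 14456 genes tested. The genotypes did not overlap for 20 of the 43, 17 lower and 3 higher, against 29.8% of all genes. Fibroblast and mural markers were lower in the same libraries (10 of 14 and 9 of 14 called), and their part in these list counts was not tested.

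The calls among the members were less stable than their directions. *Pgk1* was called in 12 of 17 alternative analyses, *Adm* in 9, *Pgam1* in 6 and *Pfkp* in 5, and the sign of each stayed the same in all 17. *Pfkm*, not called in the main fit, was called in 4 of 17 with its sign kept in all. *Pfkfb3* was called in 2 of 17, *Aldoc* in 2 of 16 and *Pkm* in 1 of 17. When only the filter on low values was dropped, *Pgk1* and *Adm* were the 2 members called.

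**Figure D5:**
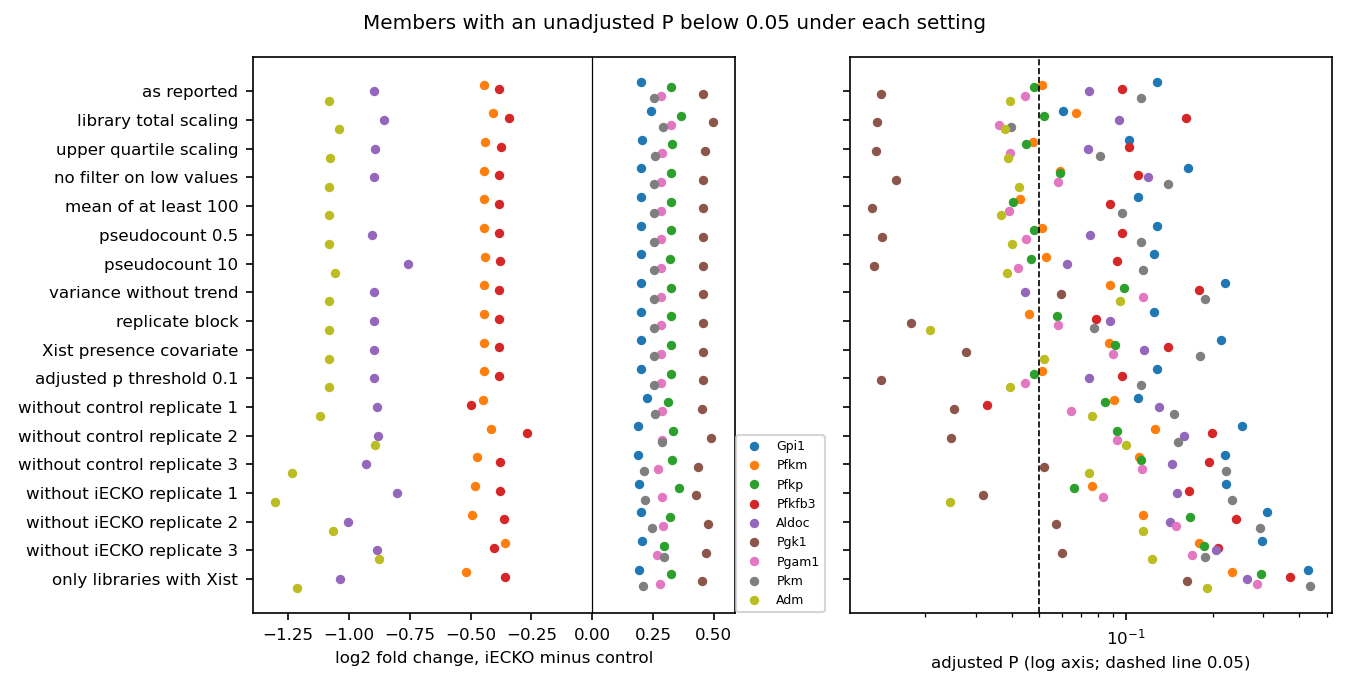
Log2 fold change (left) and limma adjusted *P* value (right, logarithmic axis, dashed line at 0.05) of the 9 members with an unadjusted *P* value below 0.05, 1 color per gene, as reported and under each of 17 alternatives (rows). Log2 fold changes of all 9 keep their sign, from 0.43 to 0.50 for *Pgk1* and from -1.31 to -0.88 for *Adm*, while the adjusted *P* values of *Pgk1*, *Pgam1*, *Pfkp* and *Adm* lie on both sides of the line. Log2 fold changes cannot move in rows that change only the filter, variance model, threshold or covariate. *Aldoc* has 16 alternatives, as its mean is below 100.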

How the data were processed

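RNA-Seq libraries of P7 iLECs (3 per genotype) were made by the authors with a TruSeq v2 mRNA kit, aligned to mm10 and quantified with BaseSpace tools; the annotation is not given in the sources used here. The authors deposited 1 table whose values are a normalized signal per gene, called normalized counts here. The labels describe raw counts, but no library held whole numbers only, and each had a median ratio to the geometric mean of 1.00365. The values were therefore taken as scaled, and no count model or counting interval was used. The most common low value, taken as the smallest counting step, stood at about 2.30, 2.34 and 2.26 normalized counts in control libraries. Whether that step is a single read or a read pair is not known. In *Atp6ap2* iECKO libraries this value stood at 1.88, 1.50 and 1.86. Reads per gene were not computed from it.

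Values were tested as log2(normalized count + 1) with limma 3.58.1 (R 4.3.3), with a mean-variance trend, no covariate, all 6 libraries, and Benjamini-Hochberg adjustment over the 14456 genes with at least 10 normalized counts in at least 3 libraries. A fold change of a low gene is understated on this scale. The script was tested on simulated data. Isoenzyme log2 ratios were compared with an exact permutation test. Levels between genes were compared per kilobase of the longest principal transcript (GENCODE, GRCm38), and coordinates are from the same annotation. Promoter sequences are from RefSeq (GRCm38.p6).

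The members, lists, and tests were chosen with earlier results of these data known. Named genes were all members, the targeted gene, and up to 6 called genes per pathway list by size of change. Values in every library were given for members with an unadjusted *P* value below 0.05, the 6 most abundant members, the HIF subunits and the hydroxylases. Those of *Ldhb*, *Ankrd37* and *Car9* were given outside this rule. Marker lists covered endothelial, fibroblast, mural and smooth muscle, epithelial, leukocyte and erythroid cells and genes of cell isolation. The labels name separate samples and the study calls them biological replicates; *P* values measure the spread between these libraries. Alternatives were other scalings, filters, pseudocounts, variance models and thresholds, *Xist* presence or replicate number as a covariate, and each library left out. The fit restricted to libraries with *Xist* was chosen after seeing the data.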

Additional observations from a re-analysis of the deposited data

How the results depend on the processing

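The log2 fold changes of *Pgk1*, *Pgam1*, *Pfkp* and *Adm* kept their sign under all 17 alternatives, and limma's adjusted *P* value stayed below 0.05 in 12 of them for *Pgk1*, 9 for *Adm*, 6 for *Pgam1* and 5 for *Pfkp*. Of 554 member values under alternatives, 497 kept their direction and side of the threshold, 36 lost and 9 gained a call, and 12 turned direction. The gained calls include those of the main fit read at a threshold of 0.1. Settings that changed only the filter, variance model, threshold or covariate could not change a log2 fold change. Part of this agreement was therefore fixed in advance. Members called higher numbered 1 with no filter, 0 without a variance trend, 1 with the *Xist* covariate and 0 in the 4 libraries with *Xist*. Those called lower numbered 2 with upper quartile scaling, 2 at a mean of at least 100, 0 with the *Xist* covariate, 4 at an adjusted *P* threshold of 0.1 and 0 in the 4 libraries with *Xist*. Same-numbered control and *Atp6ap2* iECKO libraries deviated together with correlations of 0.25, 0.11 and 0.08, and differently numbered ones with -0.21 to 0.10. The labels do not say whether the numbers pair samples, and the main fit took them as unpaired. With replicate number as a covariate 1 member was called higher and 2 lower, and 1508 genes were called in all against 1193. With 1 library left out, 0 to 1 members were higher, 0 to 1 lower and 14 to 20 did not overlap, where 35.5% to 43.5% of all genes did not, while 206 to 983 genes were called in all; the fits with fewest calls were those without control 3, *Atp6ap2* iECKO 2 or *Atp6ap2* iECKO 3.

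Called genes of the tricarboxylic acid cycle numbered 0 with no filter, without a trend, with the *Xist* covariate or in the libraries with *Xist*, 4 at the 0.1 threshold and 0 to 1 with 1 library left out. The pentose phosphate pathway had 2 at the 0.1 threshold and 0 in the libraries with *Xist*. Oxygen sensing had 1 with equal totals, 0 without a trend, 1 with the *Xist* covariate, 0 in the libraries with *Xist* and 0 to 2 with 1 library left out. Other HIF targets had 1 without a trend, 5 with the *Xist* covariate, 0 in the libraries with *Xist* and 0 to 6 with 1 library left out. In the libraries with *Xist*, limma called 0 of all genes (2196 at an unadjusted *P* value below 0.05), with fewer samples in the fit. Direction turned there for *Aldoa* (0.052), *Ndrg1* (-0.0063) and *Car9* (0.051), none of them called. With 1 library left out the log2 fold change ranged from -0.062 to 0.16 for *Slc16a1*, -0.28 to 0.48 for *Slc16a3*, -0.14 to 0.013 for *Hk1*, -0.13 to 0.026 for *Aldoa*, -0.76 to 0.017 for *Ankrd37*, -0.022 to 0.18 for *Ndrg1* and -0.56 to 0.25 for *Car9*, and the *Slc16a3* to *Slc16a1* log2 ratio difference from -0.34 to 0.41. The cause of the other changes was not tested. Read numbers are unknown, so low members such as *Car9*, *Aldoc* and *Hif3a* have an unknown counting error.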
